A study of Mus musculus with 18 samples.

Results

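Phase II enzymes attach a polar group to drugs, hormones, bile pigments and reactive by-products, so that these can leave the cell and the body. Glutathione transferases (GST) use glutathione and deal with electrophiles. UDP-glucuronosyltransferases (UGT) of the UGT1 and UGT2 groups use UDP-glucuronic acid and handle bilirubin, steroids and many drugs. The UGT3 genes are counted with them here. Sulfotransferases (SULT) use the sulfate donor PAPS on steroids, bile acids and phenols. All 3 families are best known from the hepatocyte, and the kidney tubule and the airway carry sets of their own.

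The genes described here are the rows of a raw count table whose symbol names a cytosolic or microsomal GST, a UGT1, UGT2 or UGT3 gene or a SULT gene, together with Gm3776, an alpha-class GST next to Gsta1. Of the 24062 rows of the table, 63 matched, and 57 of these reached 0.5 CPM, the count of a gene scaled to the total of its library, in at least 3 of 18 libraries: 24 GST, 18 UGT and 15 SULT rows. The other 6 (Gstt4, Sult1c1, Sult2a4, Sult4a1, Ugt2a1 and Ugt2a2) were not described further; Ugt2a2 was at 0 counts in every library.

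RNA came from whole liver, whole kidney and whole lung of C57BL/6 mice killed at 4 months. Mice of the CCNE-TA genotype carried a tetracycline-inducible Ccne1 transgene (cyclin E1, which drives cells into S phase) and the activator rtTA, while TA mice carried rtTA alone; both genotypes received doxycycline from the age of 3 weeks. Tissue and genotype give 6 groups of 3 libraries, numbered 1 to 3. The promoter that drives rtTA, the sex of the mice and which libraries come from the same mouse are not given in the sources used here, so the p-values measure only the spread between these libraries.

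Ccne1 itself followed the labels in all 18 libraries. Its level was 210 to 353 CPM in CCNE-TA liver against 2.05 to 2.82 CPM in TA liver, 485 to 897 against 1.57 to 2.58 CPM in kidney, and 65.7 to 125 against 1.04 to 6.02 CPM in lung. A two-sided exact permutation test gave p = 0.1 in each tissue, the smallest value that 3 against 3 allows. Total counts ran from 20352770 to 155323865 per library, and 3 counts corresponded to 0.0193 to 0.147 CPM. Xist was above 400 CPM in 2 of the 3 CCNE-TA livers (CCNE-TA 1 and 2) but in 1 of the 3 TA livers (TA 1), and the other 3 livers had Y-linked transcripts; in kidney and lung, libraries 1 and 2 of both genotypes had Xist and library 3 had Y-linked transcripts. Liver TA 2 thus differed from kidney TA 2 and lung TA 2, so with the labels as given the number 2 of TA did not mark 1 mouse in all 3 tissues. The liver groups are therefore unequal in these transcripts, and genotype was also fitted with the log2 level of Xist as a covariate.

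Cell type markers matched each labelled tissue. The summed level of 8 hepatocyte markers was 100246 to 186670 CPM in CCNE-TA liver and 111261 to 139692 CPM in TA liver. Alb made up most of these sums, and of the 8 markers 1 was raised and 1 lowered in CCNE-TA liver. Cps1 had 1045 to 3093 CPM in CCNE-TA and 4461 to 6701 CPM in TA. Apoa2 had 8873 to 16241 CPM against 6143 to 6333 CPM. Markers of other cells differed between the liver groups: 6 of 8 bile duct markers were raised, with a sum of 254 to 355 CPM in CCNE-TA and 59.4 to 62.7 CPM in TA, and 5 of 6 endothelial markers were lowered, with sums of 54.4 to 76.7 and 120 to 154 CPM. No bile duct or endothelial marker was at 0 in all libraries of a group, and Spp1 made up most of the bile duct sum, with 218 to 314 CPM in CCNE-TA and 40.4 to 44.3 CPM in TA. Pancreas markers summed to 9.14 to 14.4 CPM in CCNE-TA and 22.7 to 226 CPM in TA liver, and kidney tubule markers to 18.9 to 39.5 and 0.378 to 19.6 CPM. The part of these transcripts in the changes below was not tested. In bulk RNA, fewer cells of a type and less RNA per cell cannot be told apart.

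Several members are so alike that reads can be assigned to either, and this decides how their values can be read. Gsta1 (chr9:78230656-78242684, plus strand) and Gm3776 (chr9:78257129-78269166, plus strand; both GENCODE M21 on mm10) have coding sequences of 672 bases that differ at 2 positions, counted from the A of the start codon: T25C and C591T. Gsta2 (chr9:78331018-78355788, minus strand) differs from Gsta1 at 14 positions of its coding sequence, which makes them 97.9% identical. The first 90 coding bases of the 3 genes are shown because they hold 1 of the 2 positions that separate Gsta1 from Gm3776, in capitals.
Gsta1: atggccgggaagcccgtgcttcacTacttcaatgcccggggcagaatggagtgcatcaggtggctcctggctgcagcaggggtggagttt
Gm3776: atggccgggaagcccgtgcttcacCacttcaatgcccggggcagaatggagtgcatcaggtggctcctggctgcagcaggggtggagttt
Gsta2: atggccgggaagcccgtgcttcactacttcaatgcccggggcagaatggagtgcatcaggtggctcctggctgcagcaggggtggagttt

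Of all 50-base stretches in the longest transcript, 89.7% in Gsta1, 92.5% in Gm3776 and 64.2% in Gsta2 also occurred in another gene, so the split of counts among the 3 rows is uncertain. The same holds for the Ugt1a rows on chromosome 1, which are alternative first exons spliced to common last exons: 82.7% of the exon bases of Ugt1a1 and 50.3% of those of Ugt1a6a belong to other Ugt1a rows too. How reads with several alignments or several genes were counted is not given in the sources used here. Reads of the common exons were not counted for every Ugt1a row, since in liver Ugt1a2 had 0 to 5 counts and Ugt1a1 361 to 21411.

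The start regions of both groups are printed because their members moved together in liver. They come from RefSeq (GRCm38.p6), which held promoters for 50 of the 57 members, 61 promoters in all; the members without a match were Gsta4, Gstt2, Sult2a1, Sult2a2, Sult2a7, Ugt1a6b and Ugt3a2. Each stretch begins 120 bases before the start site. In the alpha-class genes, capitals mark the letters TNGCGTG, the core of the xenobiotic response element bound by the Ah receptor. In the Ugt1a genes they mark GTTAAT, part of the recognition sequence of HNF1. Matches on either strand are marked.
Gsta1, chr9:78230549-78230678, plus strand: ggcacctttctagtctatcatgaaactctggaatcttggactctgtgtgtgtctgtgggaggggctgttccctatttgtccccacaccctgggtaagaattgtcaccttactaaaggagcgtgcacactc
Gm3776, chr9:78257009-78257148, plus strand: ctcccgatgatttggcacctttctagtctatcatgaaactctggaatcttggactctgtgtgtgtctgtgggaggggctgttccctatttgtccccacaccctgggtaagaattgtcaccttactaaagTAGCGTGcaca
Gsta2, chr9:78347136-78347265, minus strand: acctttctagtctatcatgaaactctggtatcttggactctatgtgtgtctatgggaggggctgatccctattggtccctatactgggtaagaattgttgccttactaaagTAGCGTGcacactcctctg
Ugt1a1, chr1:88211839-88211958, plus strand: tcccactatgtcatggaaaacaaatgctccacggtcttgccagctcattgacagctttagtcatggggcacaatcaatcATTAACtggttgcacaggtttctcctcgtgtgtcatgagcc
Ugt1a6a, chr1:88134689-88134808, plus strand: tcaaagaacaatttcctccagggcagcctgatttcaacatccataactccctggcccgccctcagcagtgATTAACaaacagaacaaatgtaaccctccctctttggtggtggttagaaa
Ugt1a10, chr1:88055291-88055410, plus strand: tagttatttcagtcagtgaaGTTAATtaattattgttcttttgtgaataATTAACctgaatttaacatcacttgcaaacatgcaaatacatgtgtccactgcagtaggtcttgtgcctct

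The Gsta1 and Gm3776 promoters were 99% identical and those of Gsta1 and Gsta2 80.3% identical over the aligned positions, while Ugt1a1 and Ugt1a6a shared 65.1%. TNGCGTG was found in the Gm3776 and Gsta2 windows and its letters were not in the Gsta1 window. Over all windows it occurred in 4 of 61 member promoters (6.56%) and in 5.07% of 32851 mouse promoters of the same length. GTTAAT occurred in 6 of 16 UGT promoters (37.5%), 5 of 14 SULT promoters (35.7%) and 1 of 31 GST promoters (3.23%), against 7.1% of all promoters. The SULT promoters with it included those of Sult2a3, Sult2a5 and Sult2a6, which are alike. The Sult2a5 promoter was 87.4% identical to that of Sult2a3 and 80.9% identical to that of Sult2a6. Matches in such related promoters are not independent, so these shares do not show an excess of the site. Of the Ugt1a genes not printed, Ugt1a9 also held it, while Ugt1a5, Ugt1a2 and Ugt1a7c did not. Ugt1a5 was lower in CCNE-TA liver as well, though not called. The antioxidant response element core TGACNNNGC, bound by NRF2, was in 4 of 31 GST promoters (12.9%), in 0 UGT or SULT promoters and in 12.4% of all promoters. TATAAA, the TATA box, was in 9 of 61 member promoters (14.8%) and in 13.6% of all. These are matches of letters only.

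In control mice the liver held the largest share of GST and UGT counts, and the kidney that of SULT counts. GST rows took 0.601% to 0.848% of all counts in TA liver, 0.34% to 0.448% in TA kidney and 0.224% to 0.263% in TA lung. UGT rows took 0.336% to 0.411%, 0.112% to 0.186% and 0.00348% to 0.0155%, in the same order. SULT rows took 0.0551% to 0.0783% in liver, 0.0836% to 0.145% in kidney and 0.0156% to 0.0276% in lung. The tissues did not overlap in any of the 3 families. Levels between genes are given as RPKM (CPM divided by the exon length in kilobases). Mgst1, a microsomal GST, led the GST family in TA liver with 2235 ± 362 RPKM (SD, n = 3), followed by Gstm1 with 1452 ± 255, Gstp1 with 679 ± 473 and Gsta3 with 664 ± 209 RPKM. Gstp1 and Gsta3 did not differ beyond their spread, and Gstp1 varied most, with 127, 927 and 769 CPM in TA 1, 2 and 3. In kidney Gstm1 led with 687 ± 182 RPKM, ahead of Gsta2 with 310 ± 124, Mgst3 with 200 ± 30.6 and Gstt1 with 162 ± 5.91 RPKM. In lung the order was Gstm1 with 254 ± 9.77, Mgst1 with 171 ± 46.8, Gsto1 with 122 ± 12.2 and Gsta4 with 78.3 ± 3.85 RPKM.

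Among the UGT genes, TA liver was led by Ugt2b5 (662 ± 72.2 RPKM), Ugt2b36 (551 ± 79.1), Ugt2b1 (398 ± 259) and Ugt2a3 (252 ± 41.8). Ugt1a1, the bilirubin-conjugating enzyme, had 197 ± 73.0 RPKM. Its exon length includes the 82.7% shared with other Ugt1a rows, whose reads were not counted for every row. The RPKM of Ugt1a1 and the other Ugt1a rows may thus be too low beside those of Ugt2 and Ugt3 genes. TA kidney was led instead by Ugt3a2 (208 ± 60.3 RPKM) and Ugt3a1 (131 ± 17.0), which made 50.2% and 27.3% of UGT counts there. Ugt3a1 uses N-acetylglucosamine as sugar donor, so the UGT share of kidney is not one of glucuronidation genes alone. Ugt2b5 had 2.07 ± 2.26 RPKM in TA kidney. No UGT exceeded 5.83 ± 5.17 RPKM in TA lung. For the SULT genes, Sult1a1, the main phenol sulfotransferase, led in liver with 475 ± 20.8 RPKM and in lung with 63.1 ± 16.9, while Sult1d1 led in kidney with 329 ± 103 RPKM and held 82.6% of SULT counts.

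Between control tissues, 51 members were tested in 1 edgeR quasi-likelihood fit of the 9 TA libraries, with Benjamini-Hochberg adjustment over 16578 genes. Against kidney, 29 members were higher in liver and 11 were higher in kidney, beside 30.5% and 34.5% of all genes. Against lung, 38 were higher in liver and 5 in lung, beside 34.7% and 36.9% of all genes; scaling by library size alone gave 34 and 10. Between kidney and lung, 22 were higher in kidney and 13 in lung, beside 29.3% and 31.3%. Scaling by library size moved the median over all genes from -0.09 to -1.45 on the log2 scale for liver against lung and from -0.12 to -1.16 for liver against kidney, where it gave 24 and 14 members.

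Median log2 differences for liver over kidney were 1.08 for GST, 8.32 for UGT and 2.44 for SULT rows, beside -0.12 for all genes. The 5 rows higher in lung than in liver were Mgst2 (log2 difference -5.16 for liver over lung), Sult2b1, Gsto2, Ugt1a7c and Gsto1. Of the 11 rows higher in kidney than in liver, 5 were also raised with genotype in liver: Gsta2, Gstm5, Gstt2, Mgst3 and Sult2b1, a cholesterol sulfotransferase.

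In liver, CCNE-TA mice had more RNA of many GST genes and less of the Ugt1a genes. Of 51 members tested, 13 were raised and 6 were lowered, which is 25.5% and 11.8%, beside 13.7% raised and 14.8% lowered of 13811 genes. By family, 11 of 22 GST rows were raised and 0 lowered, 0 of 16 UGT rows were raised and 5 lowered, and of 13 SULT rows 2 were raised and 1 was lowered. Median log2 fold changes were 1.08 for GST, -0.91 for UGT and 0.76 for SULT rows, beside 0.02 for all genes tested. All 3 CCNE-TA livers were above all 3 TA livers for 15 of the 51 members and below them for 11. The 13811 tested genes gave 3200 higher and 3414 lower, so groups without overlap were common in liver. Without CCNE-TA 1 the lowered count was 2 and without TA 2 it was 3. Upper quartile scaling gave 15 raised and 5 lowered members, with a median of 0.20 and 2610 raised and 1367 lowered over all genes, beside 1897 and 2045. A correction for length and GC content gave 11 and 9 members.

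**Figure D1:**
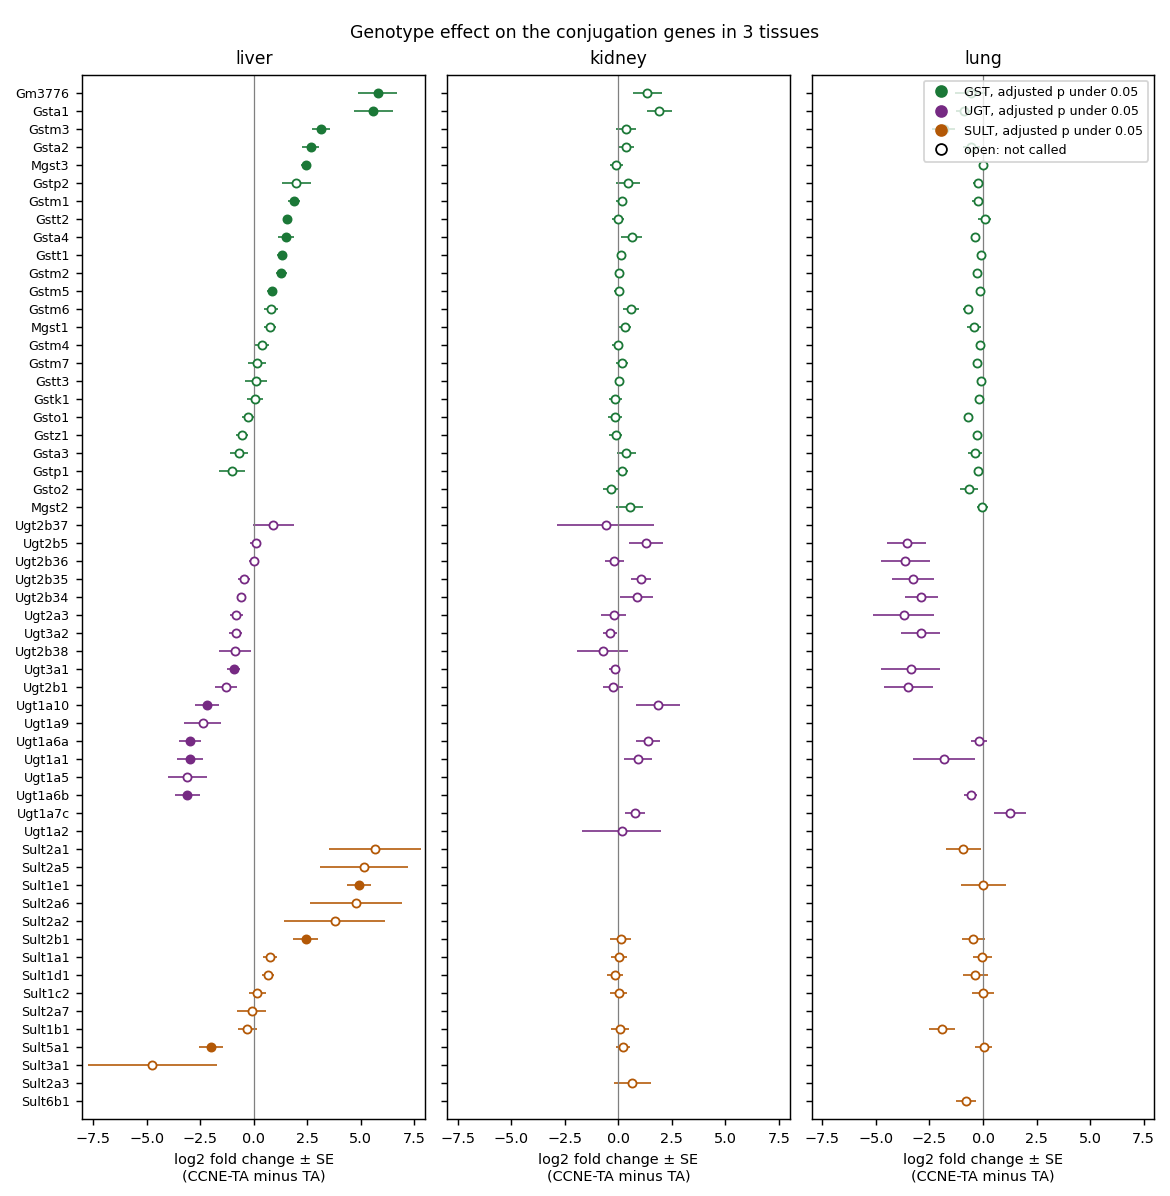
Log2 fold change of CCNE-TA over TA (x axis, ± SE) for each conjugation gene (rows, grouped by family) in liver, kidney and lung; filled points passed an adjusted p of 0.05 and a gene without a point was not tested in that tissue. The filled points all lie in the liver panel, where the GST rows extend to the right up to 5.78 and the Ugt1a rows to the left down to -3.10.

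Among the GST rows the widest differences were those of Gsta1 and Gm3776, of the alpha class. Gsta1, whose enzyme conjugates electrophiles such as lipid peroxidation products, stood at 19.4, 33.9 and 78.2 CPM in CCNE-TA 1, 2 and 3 and at 0.414, 0.378 and 1.90 CPM in TA 1, 2 and 3. Gm3776 stood at 11.9, 15.7 and 37.6 CPM against 0.0955, 0.162 and 0.853 CPM. In both rows every CCNE-TA library was far above every TA library, and number 3 was the highest of its genotype. The log2 fold changes were 5.57 ± 0.90 (SE, adjusted p = 0.0107, edgeR) and 5.78 ± 0.90 (adjusted p = 0.00876). With the 2 rows added into 1, a step chosen after seeing the data, the level was 65.5 ± 44.5 CPM (SD, n = 3) against 1.27 ± 1.29 CPM, and the log2 fold change was 5.67 ± 0.95 (SE, adjusted p = 0.0119, edgeR).

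Gsta2 rose from 10.01, 22.6 and 27.0 CPM in TA to 129, 158 and 90.1 CPM in CCNE-TA, a log2 fold change of 2.66 ± 0.39 (SE, adjusted p = 0.00462, edgeR). Gsta4, which conjugates hydroxynonenal, rose by 1.50 ± 0.38 on the log2 scale (adjusted p = 0.0236, edgeR), and its closest libraries were CCNE-TA 3 at 49.1 CPM and TA 3 at 44.5 CPM. Gsta4 lost its call (adjusted p up to 0.0772) when 1 library other than CCNE-TA 3 was left out, and with the Xist covariate (0.122). It was also lost with the length and GC correction (0.0587) and with the replicate block (0.0551, all edgeR). Gsta3, the leading alpha-class gene of control liver, had 958, 1606 and 562 CPM in CCNE-TA and 1043, 1985 and 1968 CPM in TA, and the groups overlapped (adjusted p = 0.254, edgeR). The alpha-class genes thus did not all move together: 4 of the 5 rows were raised, and the most abundant one was not called.

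The mu-class genes lie in 1 cluster on chromosome 3. Gstm1, the most abundant of them, had 4788, 3831 and 5124 CPM in CCNE-TA and 1003, 1225 and 1471 CPM in TA livers, a log2 fold change of 1.89 ± 0.29 (SE, adjusted p = 0.00502, edgeR). Gstm3 had 443, 510 and 411 CPM against 21.8, 59.7 and 73.2 CPM, or 3.14 ± 0.43 (adjusted p = 0.00365, edgeR). For both genes the lowest TA library was TA 1 and no libraries overlapped. Gstm2 rose by 1.29 and Gstm5 by 0.87 on the log2 scale (adjusted p = 0.0124 and 0.0302, edgeR), and both lost the call with the Xist covariate (0.0513 and 0.101). Gstm5 also lost it when CCNE-TA 1 or any 1 of the TA libraries was left out, with an adjusted p of up to 0.115. With the length and GC correction Gstm5 had a log2 fold change of 0.43 (adjusted p = 0.171, edgeR). The replicate block gave Gstm5 an adjusted p of 0.0638 (edgeR). Gstm4, Gstm6 and Gstm7 had fold changes of 0.38, 0.81 and 0.15 on the log2 scale and were not called.

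Theta-class Gstt1, which acts on small halogenated molecules, and Gstt2 were tight within groups. Gstt2 had 191, 154 and 169 CPM in CCNE-TA and 59.5, 62.5 and 53.0 CPM in TA liver, a log2 fold change of 1.56 ± 0.19 (SE, adjusted p = 0.00268, edgeR). Gstt1 had 698, 587 and 469 CPM against 237, 223 and 249 CPM, or 1.31 ± 0.24 (adjusted p = 0.0083, edgeR). Gstt3, the third gene of this class, had 103, 169 and 33.1 CPM against 111, 72.7 and 97.1 CPM, and its groups overlapped.

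Mgst3, a microsomal GST of the membrane-bound family, had the smallest p of all members: 82.3, 55.6 and 64.5 CPM in CCNE-TA against 14.3, 10.3 and 12.7 CPM in TA liver. Its log2 fold change was 2.44 ± 0.22 (SE, adjusted p = 0.00105, edgeR), and the adjusted p was at most 0.0102 with any 1 library left out. Mgst1, the most abundant GST of control liver, had 4396, 4756 and 3936 CPM against 2183, 2510 and 3089 CPM. These groups did not overlap, but the adjusted p was 0.0661 (edgeR; 0.00763 with DESeq2).

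Of the other GST genes, Gstz1, Gsto1 and Gstk1 had overlapping groups and were not called. Gstp1, the pi-class enzyme that is higher in male than in female mouse liver, had 265, 300 and 348 CPM in CCNE-TA. In TA it had 127 CPM in TA 1, the library with Xist, and 927 and 769 CPM in TA 2 and TA 3, with Y-linked transcripts (adjusted p = 0.25, edgeR). The log2 fold change was -0.998, or 0.34 with the Xist covariate and -1.49 (adjusted p = 0.019) without TA 1. The CCNE-TA values thus lay between those of the TA libraries of either kind. Gstp2, which shares 72.6% of its 50-base stretches with other genes, had 3.53, 9.97 and 13.5 CPM against 0.828, 4.16 and 1.73 CPM. Its log2 fold change was 1.99 ± 0.66 (adjusted p = 0.0572, edgeR) and was 2.83 (adjusted p = 0.0157) with the Xist covariate.

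Summed over the family, GST rows took 1.27% to 1.53% of all counts in CCNE-TA liver and 0.601% to 0.848% in TA liver. UGT rows took 0.229% to 0.322% against 0.336% to 0.411%, and SULT rows 0.0822% to 0.134% against 0.0551% to 0.0783%. None of these shares overlapped in liver, while in kidney those of all 3 families did. Scaled as CPM, the SULT sums of liver overlapped (661 to 1334 against 604 to 772 CPM), and the GST sums of kidney did not (4128 to 4621 against 3722 to 4117 CPM).

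**Figure D2:**
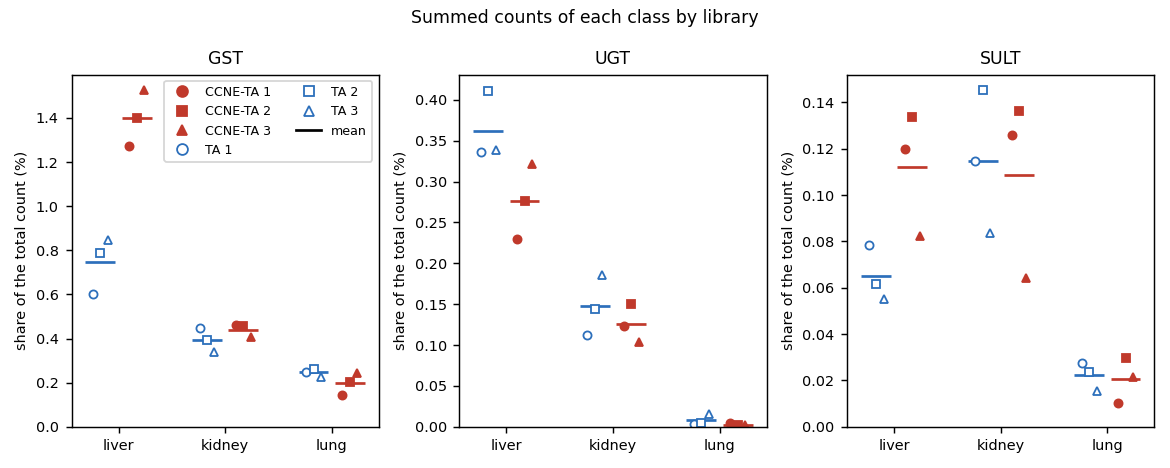
Share of the total count of a library (y axis, %) taken by the summed GST, UGT and SULT rows in liver, kidney and lung; points are single libraries and bars the mean of 3. In liver the GST share lies at 1.27% or more in every CCNE-TA library and at 0.848% or less in every TA library.

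The Ugt1a rows were lower in CCNE-TA liver in all 6 rows tested. Ugt1a1 had 24.9, 58.6 and 11.1 CPM in CCNE-TA and 341, 251 and 161 CPM in TA liver, a log2 fold change of -2.99 ± 0.61 (SE, adjusted p = 0.0143, edgeR). Ugt1a6a, a phenol-conjugating form, had 3.73, 10.2 and 2.30 CPM against 39.8, 49.9 and 38.4 CPM, or -2.96 ± 0.52 (adjusted p = 0.00947, edgeR). Ugt1a6b had 2.77, 9.19 and 2.09 CPM against 36.8, 51.5 and 34.1 CPM, or -3.10 ± 0.57 (adjusted p = 0.0113, edgeR). In each of these rows CCNE-TA 2 was the highest and CCNE-TA 3 the lowest of its group, and no libraries overlapped. Ugt1a1 lost its call without CCNE-TA 1 (adjusted p = 0.0621, edgeR).

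Ugt1a10, a low row with 5, 11 and 8 counts in CCNE-TA and 60, 71 and 18 counts in TA, was also called at -2.19 ± 0.57 (adjusted p = 0.0246, edgeR), but not when CCNE-TA 1 or TA 2 was left out (up to 0.0959). Ugt1a5 and Ugt1a9 had log2 fold changes of -3.10 ± 0.92 and -2.38 ± 0.87 and missed the threshold (adjusted p = 0.0552 and 0.0921, edgeR). These rows share exons, and how far they are separate measurements depends on how shared reads were counted, which is not given. The 8 Ugt1a rows of the table were therefore also added into 1 row. This row had 58.8 ± 49.0 CPM (SD, n = 3) in CCNE-TA and 438 ± 68.5 CPM in TA. Its log2 fold change was -2.89 ± 0.58 (SE, adjusted p = 0.0118, edgeR). Counted in this way, 3 members were lowered in liver: the Ugt1a row, Ugt3a1 and Sult5a1.

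**Figure D3:**
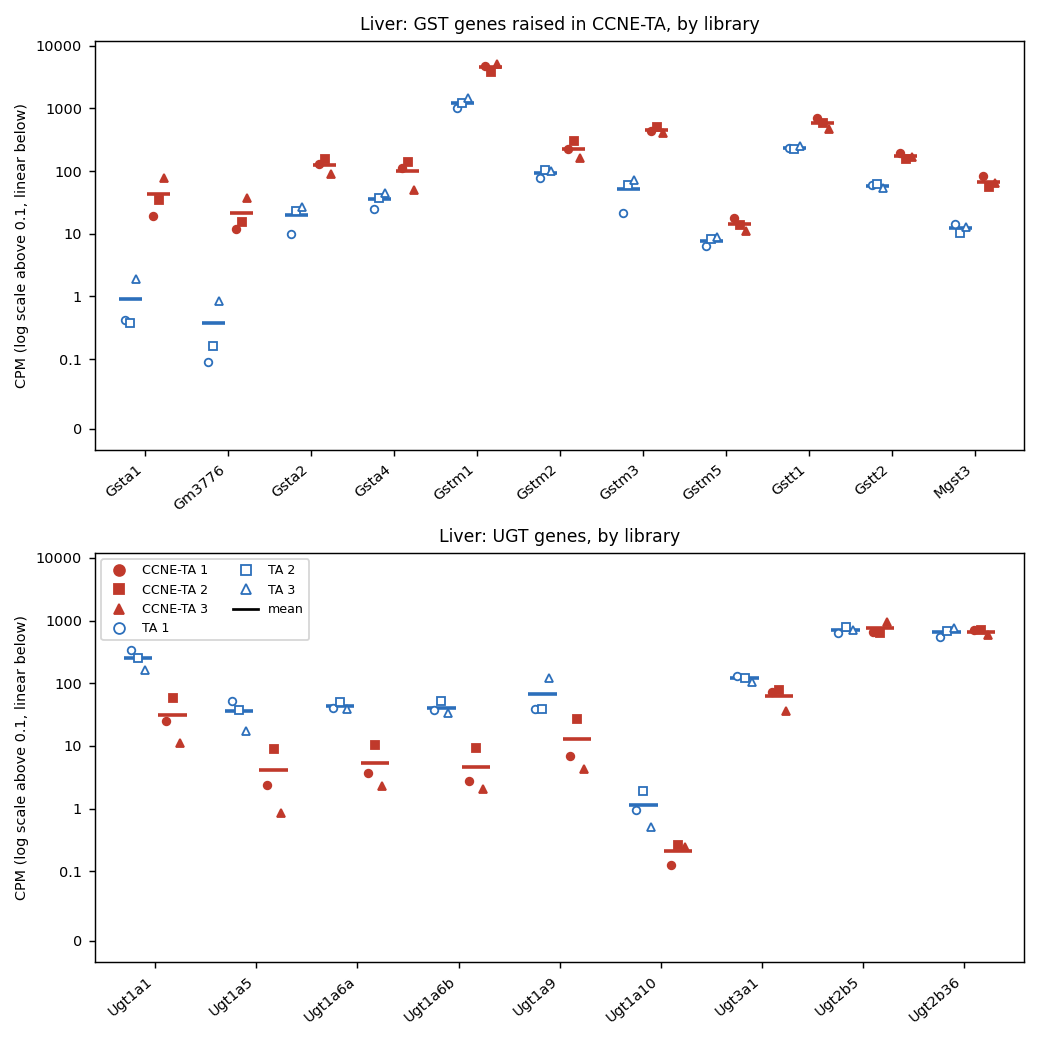
Level in CPM (y axis, logarithmic above 0.1 and linear below) of the 11 raised GST genes (top) and of 9 UGT genes (bottom) in each liver library; bars are means of 3. Every raised GST gene has all red points above all blue ones, the Ugt1a rows have them below, and Ugt2b5 and Ugt2b36 overlap. Such separation was common in liver, where 3200 of 13811 tested genes were all higher and 3414 all lower.

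The Ugt2 and Ugt3 genes differed less. Ugt3a1, which uses N-acetylglucosamine as sugar donor, had 72.1, 78.9 and 36.0 CPM in CCNE-TA and 132, 121 and 105 CPM in TA liver. The log2 fold change was -0.94 ± 0.29 (SE, adjusted p = 0.0436, edgeR), and it was lost when CCNE-TA 1 or any 1 TA library was left out (up to 0.104). Ugt2a3, Ugt2b34 and Ugt3a2 were lower in every CCNE-TA library, with log2 fold changes of -0.81, -0.58 and -0.84, but had adjusted p-values of 0.0693 to 0.0739 (edgeR). The 2 leading UGT genes of control liver had levels close to those in TA: Ugt2b5 with 752 ± 180 CPM (SD, n = 3) against 709 ± 80.6 CPM and Ugt2b36 with 669 ± 62.8 against 654 ± 103 CPM. Over the UGT family, DESeq2 called 11 rows where edgeR called 5.

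Among SULT genes, Sult1e1, the estrogen sulfotransferase, had 20.8, 22.0 and 6.50 CPM in CCNE-TA liver and 0.764, 0.324 and 0.370 CPM in TA liver. Its log2 fold change of 4.91 ± 0.56 (SE, adjusted p = 0.00264, edgeR) kept an adjusted p of at most 0.0162 with any 1 library left out. Sult2b1 was called at 2.42 ± 0.59 (adjusted p = 0.0193, edgeR) from 18, 14 and 17 counts against 4, 0 and 2 counts. At such counts the fitted fold change depends on the prior count, and the call was lost without CCNE-TA 1, TA 2 or TA 3 (up to 0.0699). Sult5a1 had 1.396, 0.938 and 4.88 CPM against 9.18, 9.37 and 10.6 CPM, or -2.00 ± 0.56 (adjusted p = 0.0317, edgeR), and lost the call without CCNE-TA 1 or any 1 TA library (up to 0.0992). The abundant Sult1a1 and Sult1d1 had log2 fold changes of 0.76 and 0.67 and were not called (adjusted p = 0.106 and 0.105, edgeR).

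Sult2a and Sult3a enzymes act on bile acids and steroids, and several are known as female-predominant in mouse liver. All of their rows except Sult2a7 were higher in each liver library with Xist than in each one with Y-linked transcripts. Sult2a1 had 23.7 and 27.2 CPM in CCNE-TA 1 and 2 and 0.764 CPM in TA 1, the 3 libraries with Xist, and 0.184, 0 and 0 CPM in CCNE-TA 3, TA 2 and TA 3. Sult2a5 had 21.2, 16.8 and 0.828 CPM in the libraries with Xist and 0.215 CPM or less in the others, and Sult2a6 had 16.4, 10.9 and 0.764 CPM against 0.0307 CPM or less. Sult3a1 ran the other way, with 121 CPM in TA 1 against 2.92 and 1.38 CPM in CCNE-TA 1 and 2, and 0.0613 CPM or less in the libraries with Y-linked transcripts. Sult2a3 stayed at 0.844 CPM or less in every library. Sult2a7 did not separate in this way: it had 2.39, 9.33 and 9.68 CPM in CCNE-TA 1, CCNE-TA 2 and TA 1 and 2.73, 2.49 and 3.21 CPM in CCNE-TA 3, TA 2 and TA 3.

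None of these genes was called in the fit of genotype alone (adjusted p = 0.115 for Sult2a1, 0.125 for Sult2a5, 0.157 for Sult2a6 0.297 for Sult3a1 and 0.928 for Sult2a7, edgeR; Sult2a3 was not tested). The log2 fold change of Sult3a1 was -4.74 with all libraries and 3.79 (adjusted p = 0.0665) without TA 1. With the Xist covariate the log2 fold changes were 3.76 for Sult2a1 (adjusted p = 0.00241, edgeR), 3.29 for Sult2a5 (0.00341), 2.70 for Sult2a6 (0.00788) and -6.27 for Sult3a1 (0.00128). Only 1 TA liver had Xist, so among libraries with Xist the difference is 2 libraries against 1. Sult2a2, whose sequence shares 62.1% of its 50-base stretches with other genes, had 28.2, 28.9 and 3.79 CPM in the same 3 libraries and was not called in either fit.

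**Figure D4:**
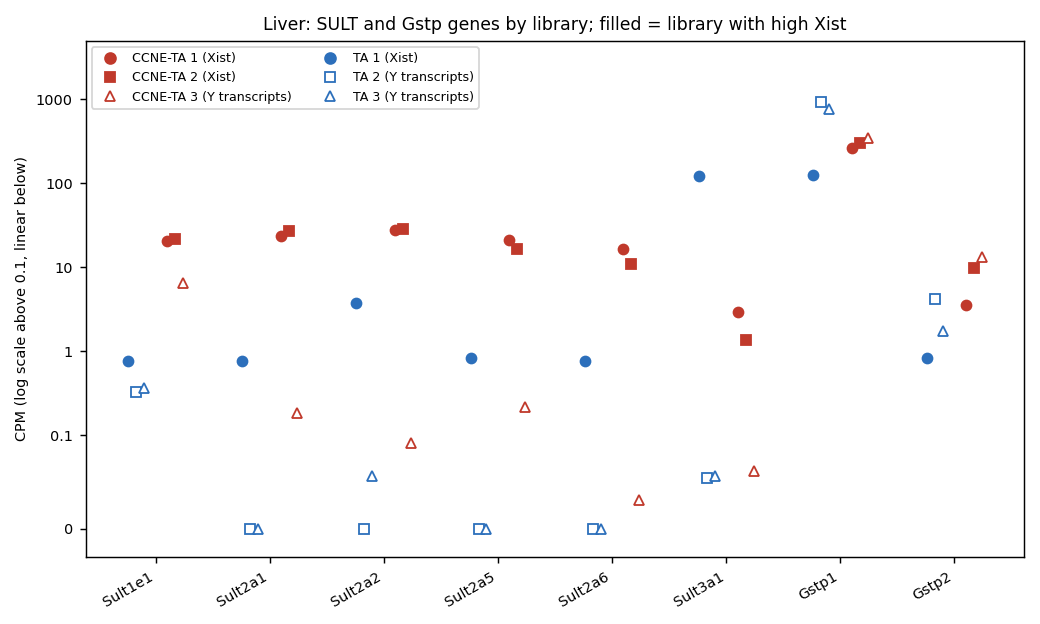
Level in CPM (y axis, logarithmic above 0.1 and linear below) of SULT and Gstp genes in the 6 liver libraries; filled symbols are libraries with high Xist and open symbols those with Y-linked transcripts. Sult2a1, Sult2a2, Sult2a5 and Sult2a6 are at 10.9 CPM or more in CCNE-TA 1 and 2 and at 3.79 CPM or less elsewhere, and Sult3a1 is high only in TA 1 among these 6 libraries.

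The pathway around these enzymes was described from lists of cofactor, transport and regulator genes. Over all 13811 genes tested in liver, 13.7% were raised and 14.8% lowered, and no list was tested as a set. For glutathione synthesis and recycling, 2 of 13 tested genes were raised in liver and 0 lowered: Gclc, the catalytic subunit of the rate-limiting enzyme, and Gss, glutathione synthetase. For the supply and transport of UDP-glucuronic acid, 1 of 5 was raised (Ugdh, which makes the donor) and 1 lowered. The latter was Slc35d1, the transporter that carries it into the endoplasmic reticulum, with 15.5, 23.6 and 9.75 CPM in CCNE-TA and 63.0, 54.7 and 90.4 CPM in TA, or -2.09 ± 0.34 on the log2 scale (adjusted p = 0.00614, edgeR).

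For sulfate donor synthesis, 4 of 7 genes were lowered and 0 raised. Slc26a1, a sulfate transporter, had 34.7, 57.8 and 24.9 CPM in CCNE-TA against 202, 219 and 205 CPM in TA, or -2.41 ± 0.31 (adjusted p = 0.00321, edgeR). The other 3 were Slc26a2, a second sulfate transporter, and Bpnt1 and Impad1, phosphatases that clear the by-product of sulfation. Papss2, the PAPS synthase with the higher level in liver, had 161, 225 and 92.9 CPM against 193, 237 and 209 CPM and was not called. Conjugate hydrolases had 0 of 3 genes raised and 2 lowered (Gusb, which removes glucuronic acid, and Arsb, a lysosomal sulfatase), with Gusb at -1.18 ± 0.17 (adjusted p = 0.004, edgeR). Of 7 exporters, Abcc5 was raised and Abcc2, the canalicular exporter of glucuronides and glutathione conjugates, was lowered, and of 13 other conjugating enzymes Nat2 was raised and none lowered.

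Regulators showed 1 of 16 genes raised and 6 lowered. The raised one was Nfe2l2, which encodes NRF2, the activator of many GST genes. It had 84.4, 79.9 and 116 CPM in CCNE-TA and 47.0, 44.8 and 57.0 CPM in TA, or 0.91 ± 0.21 (adjusted p = 0.0164, edgeR). Keap1, in the same list, was not called. The activity of NRF2 and its part in the GST changes were not tested. The lowered ones included Arnt, Rxra, Ppara, Hnf4a and Esr1. Rxra, the partner of PXR, CAR and PPARα, had -1.35 ± 0.21 (adjusted p = 0.00567, edgeR), Ppara had -1.41 ± 0.23 (0.00656) and Esr1, the estrogen receptor, had -2.65 ± 0.40 (0.00523). Over all 7 lists, each with 3 to 16 tested genes, 6 genes were raised and 14 lowered in liver. Of all genes tested, 13.7% were raised and 14.8% lowered. In kidney and in lung, edgeR called 0 genes of the 7 lists. In lung, DESeq2 called 3 genes of the list of other conjugating enzymes.

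In kidney no member was called. Of 46 members tested with edgeR, 0 passed, beside 0.0131% of 15247 genes; 2 had an unadjusted p under 0.05, and DESeq2 called 0. The 2 were Gsta1, with 4.66, 3.90 and 1.54 CPM in CCNE-TA and 1.24, 0.988 and 0.268 CPM in TA kidney, and Ugt1a6a, with 0.868, 1.30 and 0.544 CPM against 0.222, 0.482 and 0.179 CPM. Their log2 fold changes were 1.92 ± 0.58 and 1.38 ± 0.54 (adjusted p = 0.999 for both, edgeR). Gstm1 had 1331 ± 221 CPM (SD, n = 3) against 1200.3 ± 324 CPM, Ugt3a1 372 ± 105 against 415 ± 51.2 CPM and Sult1d1 863 ± 349 against 959 ± 294 CPM.

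Some kidney members varied with the library rather than with genotype. Ugt2b38 had 280 and 551 CPM in CCNE-TA 3 and TA 3, the libraries with Y-linked transcripts, and 36.4 to 68.9 CPM in the 4 with Xist. Ugt2b37 had 67.5 and 132 CPM in the former and 0.241 to 16.7 CPM in the latter. Ugt1a2 showed the opposite, with 0.961 and 0.224 CPM against 44.3 to 70.0 CPM. Kidney libraries 3 of both genotypes differed from the other 4 in the same direction for all 3 genes.

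In lung no member was called by edgeR either: 0 of 45 tested, beside 0.00594% of 16823 genes. An unadjusted p under 0.05 was found for 13 members, DESeq2 called 6 and a fit of all 18 libraries called 2 (Ugt2b35 and Ugt2b36). All 3 lung CCNE-TA libraries were below all 3 TA libraries for 20 of the 45 members and above them for 0, where all tested lung genes gave 773 lower and 556 higher. Median log2 fold changes were -0.27 for GST, -3.09 for UGT and -0.37 for SULT rows, beside 0.02 for all genes. Ccne1 itself had a log2 fold change of 4.60 ± 0.66 in lung but an adjusted p of 0.897 (edgeR), so missing the threshold in lung does not show that a gene kept its level.

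Ugt2b5 had 2.61, 0.898 and 0.421 CPM in CCNE-TA and 6.04, 9.42 and 32.3 CPM in TA lung, with a log2 fold change of -3.57 ± 0.92 (adjusted p = 1 with edgeR and 0.000994 with DESeq2). Ugt2b34, with 1.65, 0.863 and 0.394 CPM against 3.25, 4.24 and 14.6 CPM, had -2.88 ± 0.78, and Ugt2b35 had -3.27 ± 0.97. In TA lung the highest library for each was TA 3 and the levels were far below those of liver. Alb, a hepatocyte marker, was ordered in the same way: 204, 66.2 and 16.9 CPM in CCNE-TA and 265, 418 and 1402 CPM in TA lung. The 8 hepatocyte markers summed to 30.5 to 293 CPM in CCNE-TA lung and 427 to 2259 CPM in TA lung, and none was at 0 in all libraries of a group. For each 1000 CPM of Alb, the 10 Ugt2 and Ugt3 rows had 53.6, 57.7 and 148 CPM in CCNE-TA lung and 81.5, 78.6 and 90.3 CPM in TA lung, beside 18.3 to 47.6 CPM in liver. The part of hepatocyte transcripts in these lung values was not tested.

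**Figure D5:**
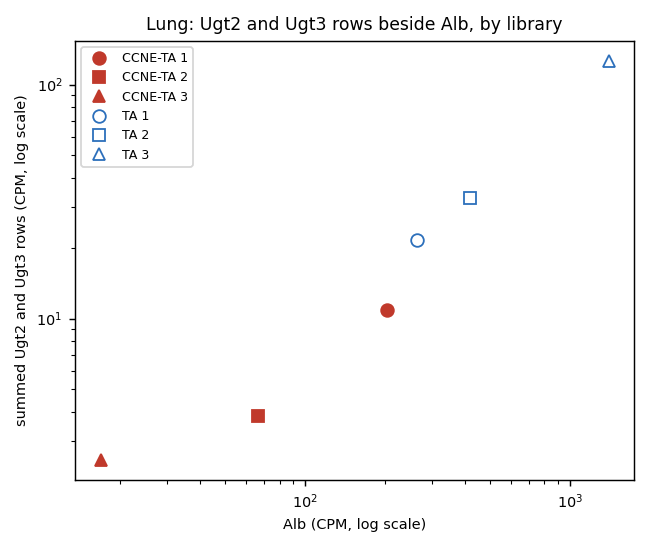
Summed CPM of the 10 Ugt2 and Ugt3 rows (y axis, log scale) beside the CPM of Alb (x axis, log scale) in the 6 lung libraries. The sum is lowest in CCNE-TA 3 (2.50 CPM) and highest in TA 3 (127 CPM), and so is Alb, with 16.9 and 1402 CPM.

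Of the lung GST genes, Gstm3 had 2.55, 0.909 and 0.775 CPM in CCNE-TA against 4.18, 6.63 and 4.59 CPM in TA, or -1.84 ± 0.53 on the log2 scale (adjusted p = 1 with edgeR and 0.0321 with DESeq2), the opposite sign of its change in liver. Gsto1, an omega-class GST, had 180, 201 and 290 CPM against 348, 398 and 336 CPM, or -0.69 ± 0.21, with no overlap. Gstm1 had 459 ± 141 CPM (SD, n = 3) against 548 ± 19.2 CPM and Sult1a1 136 ± 80.1 against 139 ± 36.3 CPM. Mgst3, the member with the smallest p in liver, had 39.3 ± 8.34 against 39.4 ± 2.39 CPM in lung.

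Whether the genotype effect differed between tissues was tested as an interaction in 1 fit of all 18 libraries and 17155 genes. Between liver and kidney, 12 of 57 members passed, beside 9.52% of all genes. In 10, all GST rows, the effect in liver was the higher one: Gm3776, Gsta1, Gsta2, Gstm1, Gstm2, Gstm3, Gstm5, Gstt1, Gstt2 and Mgst3. For Mgst3 the difference of the log2 fold changes was 2.53 ± 0.37 (SE, adjusted p = 0.00301, edgeR). In the other 2 the effect in liver was the lower one: Ugt1a6a with -4.39 ± 0.76 (0.00649) and Sult5a1 with -2.24 ± 0.68 (0.0484). The count was 3 without kidney CCNE-TA 2, 5 without kidney TA 1, 6 without liver CCNE-TA 1 and 7 without liver TA 2.

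Between liver and lung, 18 of 57 members passed, beside 12.7% of all genes, 17 of them with the higher effect in liver. They were 11 GST rows, led by Gstm3 with 4.94 ± 0.63 (adjusted p = 0.00121, edgeR) and Gsta1 with 6.42 ± 0.93 (0.00227), 3 Ugt2b rows, 3 SULT rows and, with the lower effect in liver, Ugt1a6a with -2.79 ± 0.66 (0.0175). For the 3 Ugt2b rows (Ugt2b5, Ugt2b35 and Ugt2b36) the lung value is the one that moved with Alb. The count was 10 without liver CCNE-TA 1 and 10 without lung CCNE-TA 2; scaling by library size gave 1083 higher and 615 lower over all genes in place of 1068 and 1116, and 18 and 1 members. Between kidney and lung 0 of 57 passed, beside 0.00583% of all genes, while 13 had an unadjusted p under 0.05 and DESeq2 called 6.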

How the data were processed

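The authors deposited 1 table of raw read counts per gene symbol, whole numbers with no normalization, with 1 column for each of the 18 libraries (0 columns were left unmapped). Per the labels' protocols, the TruSeq RNA v2 kit was used, which leaves the strand unmarked. Per the submitters' processing notes, TopHat2 2.0.14, Bowtie2 2.2.6, featureCounts 1.4.6 and the build mm10 were used. The annotation and the treatment of reads with several alignments are not given in the sources used here. Of counts between 1 and 20, 64.2% to 71.2% were even; a count is thus not 1 molecule, and floors cover counting error only.

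Each tissue was fitted with edgeR 4.0.16 (R 4.3.3; filterByExpr, TMM scaling, robust quasi-likelihood F test, prior count 2), with Benjamini-Hochberg adjustment over all tested genes and a threshold of 0.05. The SE of a log2 fold change was its size divided by the square root of F. CPM values were TMM-scaled within a tissue and RPKM values over all 18 libraries, with exon lengths from GENCODE M21 for 98.4% of symbols. Alternatives were DESeq2 1.42.0, limma 3.58.1 (voom), other scalings, no filter, 1 fit of all libraries, a replicate block, an Xist covariate (log2 of CPM plus 0.5), a length and GC correction and leaving out each library. The test was checked on simulated counts. Of 100 genes changed 4-fold, the liver fit found 68%, the kidney fit 78% and the lung fit 59%. Of 100 changed 2-fold they found 5%, 19% and 16%. False calls were 10 of 83 calls in liver, 13 of 110 in kidney and 11 of 86 in lung. These are larger shares than the threshold of 0.05 aims at. The simulation changed far fewer genes than were called in liver, so its rates need not hold there.

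Kidney libraries that share a number departed from their group means alike (correlations 0.308, 0.486 and 0.34), so the numbers may mark pairs there. The kidney fold changes and p-values given above come from the fit without pairs, and the replicate block was an alternative. Kidney libraries 3 of both genotypes had Y-linked transcripts, and the part of this in the correlations was not tested. The members, marker lists, pathway lists and alternatives were chosen with earlier results of these data known. Any member could be named; full values went to those with the smallest p in each tissue and family (up to 6 in each direction in liver, 3 in kidney and in lung), the 4 highest by RPKM, up to 6 by interaction p, Gsta1, Gm3776, Ccne1 and, of the pathway lists, the 6 with the smallest p in a tissue. Other values in the text (Sult2a, Sult3a1, Gstp, Ugt2b37, Ugt2b38, Ugt1a2) were added after they were seen.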

Additional observations from a re-analysis of the deposited data

Results flagged for a closer look

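The genotype effect differed between liver and another tissue, by the interaction test, for several genes described above. For liver over kidney, the difference of the log2 fold changes was 2.53 for Mgst3 (adjusted p = 0.00301, edgeR), -4.39 for Ugt1a6a (0.00649), 1.17 for Gstt1 (0.0187), 1.74 for Gstm1 (0.0203), 1.57 for Gstt2 (0.0228) and 2.77 for Gstm3 (0.0242). For liver over lung it was 4.94 for Gstm3 (adjusted p = 0.00121, edgeR), 6.42 for Gsta1 (0.00227), 2.42 for Mgst3 (0.00291), 6.33 for Gm3776 (0.0074), 3.19 for Gsta2 (0.00782) and 2.12 for Gstm1 (0.00793). Mgst3 had 260 ± 40.8 CPM (SD, n = 3) in TA kidney, above both liver groups, and Ugt1a6a had 0.179 to 1.30 CPM over all 6 kidney libraries.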

How the results depend on the processing

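The number of members raised in liver ran from 10 to 17 over all settings tried, beside 13. The number lowered, 6, was 12 with DESeq2, 3 with the Gsta1 and Ugt1a rows merged and 2 to 9 with 1 library left out. With the replicate block it was 7, and 15 members were raised. Libraries that share a number had correlations of 0.2, -0.00177 and 0.0826 in liver and -0.477, -0.105 and -0.592 in lung. With 3 libraries in a group, these values cannot settle whether the numbers mark pairs there. In kidney, where libraries of the same number departed alike, the replicate block called 0 members, as did the fit without it. In lung DESeq2 called 6 members lowered and 1 fit of all 18 libraries called 2. With 1 library left out, the difference between liver and kidney was called for 3 to 13 members, beside 12, and that between liver and lung for 10 to 18. For kidney against lung DESeq2 called 6 members. Library size scaling put 10 members higher in lung than in liver, beside 5. The causes were not tested, apart from the merged rows, where fewer rows are counted. Over all pairs of a named gene and a setting in liver, 35 lost and 18 gained a call, 469 kept their sign and their side of the threshold and 14 changed sign, all of them not called in either fit. With the Xist covariate Gstp1 went from -0.998 to 0.34 (log2), with the length and GC correction Ugt2b5 and Ugt2b36 had -0.20 and -0.27 in place of 0.08 and 0.03, and with upper quartile scaling Sult2a7 had 0.0696 in place of -0.09. With 1 liver library left out, the log2 fold change ran from -5.65 to 3.79 for Sult3a1, -1.01 to 0.740 for Sult2a7, -0.80 to 0.059 for Sult1b1, -0.42 to 0.0080 for Gsto1, -0.13 to 0.186 for Ugt2b5 and -0.095 to 0.13 for Ugt2b36. In the same way it ran from -0.39 to 0.14 for Sult1d1 in kidney and from -1.12 to 0.14 for Gm3776 in lung. The limits are 3 libraries in a group, unequal Xist in liver and shared sequence among Gsta, Gstp, Sult2a and Ugt1a rows.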
